A study of Mus musculus with 8 samples.

Results

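Hox genes encode homeodomain transcription factors that give cells along the body axis and in the limbs their positional identity. In mice they lie in 4 clusters, and the number in a gene's name is its paralog group, which follows its order along the cluster: low numbers lie at the 3′ end and are used early and anteriorly in the embryo, and high numbers lie at the 5′ end and are used late and posteriorly. Adult mesenchymal cells and many tumor lines keep part of this pattern. The clusters also hold the miR-10 and miR-196 genes, microRNAs that act through Argonaute proteins and have Hox transcripts among their known targets.

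The transcripts described here were chosen by name. Every protein-coding gene called Hoxa, Hoxb, Hoxc or Hoxd plus a number in the GENCODE M21 annotation was taken, which gave 39 genes among the 55487 rows of the deposited count table. HoxA holds 11 of them (chr6:52155590-52260880, build mm10), HoxB 10 (chr11:96194316-96368256), HoxC 9 (chr15:102921103-103036852) and HoxD 9 (chr2:74668310-74765142). Each of the 39 was kept in the counts below, including 3 without a single count (Hoxb1, Hoxb13 and Hoxc12).

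The material was 8 tumors of Lewis lung carcinoma (LLC), a C57BL/6 mouse lung carcinoma line, grown under the skin of syngeneic female C57BL/6J mice aged 6 to 8 weeks and taken on day 12. Wild-type LLC cells formed 4 of them and LLC cells with a CRISPR knock-out of Ago2 (ΔAgo2) formed the other 4, with 4 mice in each group. Ago2 is an Argonaute protein, and all 4 mammalian Argonautes can carry microRNAs to their targets. The ΔAgo2 cells came from 1 clone, so clone and genotype cannot be told apart, and the hosts kept Ago2. The question was how the tumor transcriptome differs when the cancer cells lack Ago2.

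Total counts ran from 7903288 in wild-type tumor 4 to 268564145 in ΔAgo2 tumor 4, and the Hox genes together took 1978 to 62122 counts, 0.0225% to 0.0307% of each library's TPM, transcript counts scaled for gene length and library total. Ago2 itself was not lower in the ΔAgo2 tumors: it stood at 130, 195, 151.3 and 138 CPM, counts scaled for library totals adjusted by edgeR's TMM factors and not for gene length, in wild-type and 118, 355, 215 and 270 CPM in ΔAgo2 (log2 fold change 0.64 ± 0.30 SE, edgeR quasi-likelihood adjusted p = 0.205), so its transcript does not check the labels. Epithelial genes, lung genes among them, and Vim were looked up afterwards. Of the lung genes, Nkx2-1 was listed at 0 TPM in all 8 tumors and Sftpc at no more than 0.13 TPM. The epithelial genes Epcam and Cdh1 were low, at 0.79 to 6.26 and 1.07 to 10.4 TPM. Krt18, a simple-epithelial keratin, stood at 511 to 1185 TPM and Vim at 2275 to 4401 TPM. Gene counts followed GC content differently between libraries: across genes, the deviation of a library from the mean had a Spearman correlation with GC content of 0.70 in wild-type tumor 2 and 0.66 in wild-type tumor 4, against -0.61 to -0.01 in the other 6 tumors. It was -0.61, -0.45 and -0.60 in ΔAgo2 tumors 2, 3 and 4, a trend in the opposite direction. These are whole tumors, so a lower level may be fewer cells of a type or less RNA per cell, which cannot be told apart.

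A Hox code with HoxD at its head was present in every tumor. Counting a gene as on at 1 TPM or more in at least 4 of the 8 tumors, 20 of the 39 were on: 9 of 11 in HoxA (Hoxa2 to Hoxa7, Hoxa10 and Hoxa11 among them), 8 of 10 in HoxB (Hoxb2 to Hoxb9), 0 of 9 in HoxC and 3 of 9 in HoxD (Hoxd8, Hoxd9 and Hoxd10). In a single tumor 18 to 24 of the 39 reached 1 TPM. HoxD gave 49.8% to 57.3% of all Hox TPM, HoxA 26.0% to 32.1%, HoxB 13.99% to 22.5% and HoxC 0.795% to 3.51%. Requiring 5 TPM left 10 genes on, all of them in HoxA, HoxB and HoxD.

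**Figure D1:**
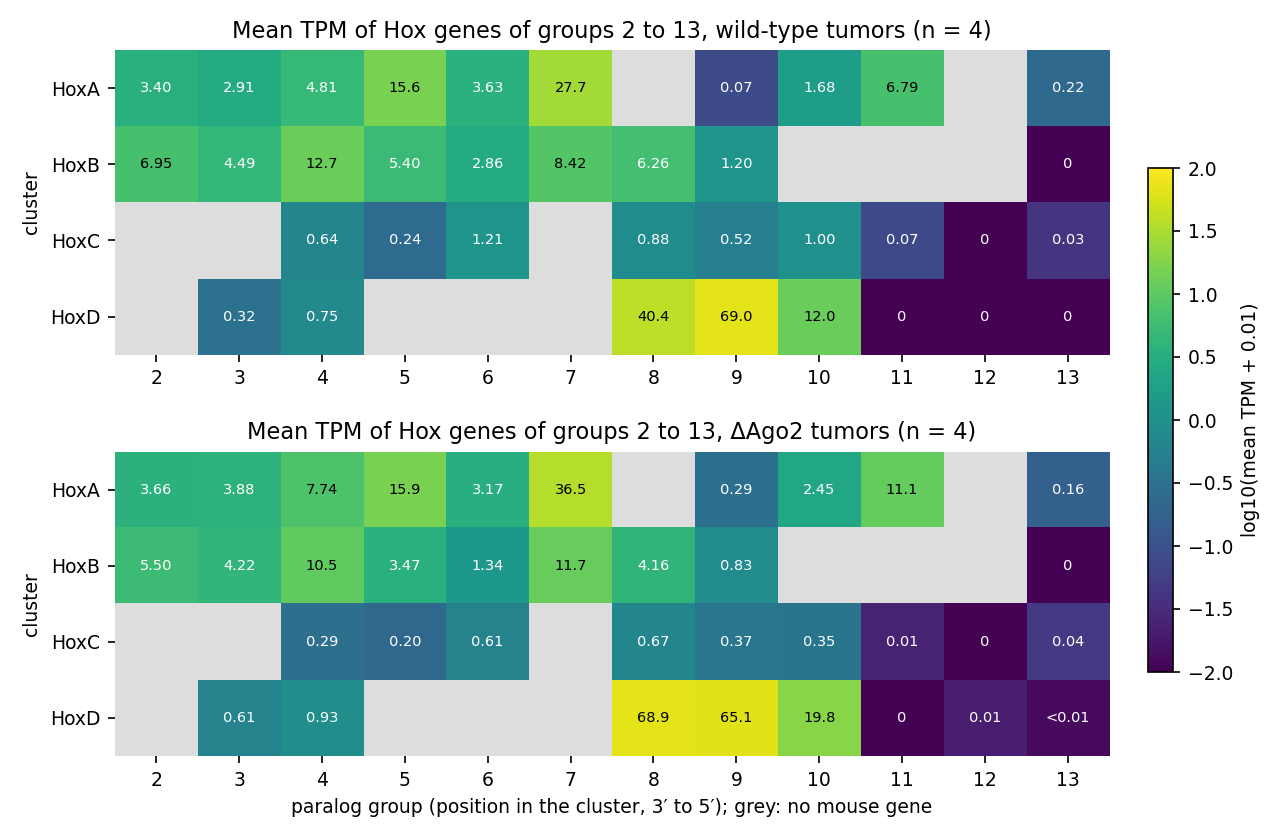
Mean TPM of the Hox genes of paralog groups 2 to 13 (n = 4 tumors for each genotype), with clusters as rows and paralog groups as columns; colour is log10(mean TPM + 0.01) and each cell prints the mean. HoxD is on at groups 8 to 10 and stops there, while HoxA and HoxB are on across most of groups 2 to 8 and HoxC stays near or under 1 TPM.

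Hoxd9 and Hoxd8 were the most abundant Hox transcripts. Hoxd9 was at 51.9, 89.3, 54.6 and 80.2 TPM in wild-type tumors and 72.6, 61.5, 58.4 and 67.7 TPM in ΔAgo2 tumors. Its neighbour Hoxd8 stood at 45.7, 31.5, 56.5 and 27.8 TPM in wild-type and 58.0, 74.0, 70.8 and 72.8 TPM in ΔAgo2. Both ranges are wide within the wild-type tumors, and tumors 2 and 4 of that group were highest for Hoxd9 and lowest for Hoxd8, so the order of these neighbours was not fixed across tumors. By mean level Hoxd9 was above Hoxd8 in wild-type tumors (69.0 against 40.4 TPM) and below it in ΔAgo2 tumors (65.1 against 68.9 TPM), where Hoxd8 was higher in 3 of 4. Hoxa7, the leading HoxA gene, came next at 30.8, 26.5, 29.9 and 23.7 TPM in wild-type and 34.7, 37.9, 36.0 and 37.3 TPM in ΔAgo2. Hoxd8, Hoxd9 and Hoxa7 together made 55.2% to 63.7% of the Hox TPM of a tumor. Hoxd10 and Hoxa5 followed, at 11.1 to 22.0 and 12.0 to 19.2 TPM over the 8 tumors, ranges that overlap.

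The 5′ boundary of HoxD was sharp. Hoxd10 had 6369 counts over the 8 tumors, and Hoxd11, the next gene on the chromosome and a known limb and kidney patterning gene, had 1. Hoxd12 had 5 counts and Hoxd13, the last gene of the cluster and a digit patterning gene, had 1. On the 3′ side of the active stretch Hoxd4 stood at 0.47 to 1.62 TPM and Hoxd3 at 0.14 to 1.19 TPM, and Hoxd1 had 2 counts. Hoxd3 and Hoxd4 share 62.3% and 52.3% of their exon bases with other genes on the same strand. How reads of shared bases were counted is not given in the sources used here, so these levels are uncertain. A count of 0 allows up to 3 counts, which is 0.380 CPM in the shallowest library and 0.0112 CPM in the deepest (on unscaled totals), as counting error alone.

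HoxA ended less evenly. Hoxa9, a gene known as a driver of acute leukemia, was at 0.05 to 0.44 TPM, between Hoxa7 and Hoxa10, whose lowest value was 1.04 TPM. Hoxa11, a limb and uterus patterning gene at the other side of Hoxa10, was on at 5.70 to 12.4 TPM, and Hoxa13 was at 0.08 to 0.38 TPM. Hoxa9 was therefore a gap inside an active stretch in all 8 tumors. Of the exon bases of Hoxa11, 35.0% also lie under the antisense gene Hoxa11os; the strand setting of the counting is not given in the sources used here, so reads of such pairs may be mixed. The same holds for Hoxb3, with 52.9% of its exon bases under Hoxb3os, and Hoxd3 and Hoxd4 share 62.3% and 52.3% of their exon bases with other genes on the same strand.

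In HoxB, Hoxb4 and Hoxb7 led, while Hoxb5 and Hoxb6 between them stood lower, at 2.97 to 6.77 and 1.18 to 4.12 TPM. Hoxb4, a regulator of blood stem cell self-renewal, stood at 8.68 to 17.9 TPM and Hoxb7 at 6.51 to 13.5 TPM, with Hoxb2 at 5.02 to 8.60 TPM and Hoxb8 at 3.61 to 8.22 TPM. The range of Hoxb4 overlaps that of Hoxb7 and lies above those of Hoxb2 and Hoxb8, while those of Hoxb7, Hoxb2 and Hoxb8 overlap. Hoxb9 was at the edge, at 0.51 to 1.79 TPM and at 1 TPM or more in 4 tumors. Hoxb1, which patterns the hindbrain, and Hoxb13, a prostate and tail-bud gene, had no counts.

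HoxC was the weakest cluster in all 8 tumors. Its summed level was 3.83, 3.55, 8.73 and 2.24 TPM in wild-type tumors and 2.62, 2.44, 2.66 and 2.44 TPM in ΔAgo2 tumors. Wild-type tumor 3 stood above the rest: Hoxc6, Hoxc8, Hoxc9 and Hoxc10 were at 2.14, 1.88, 1.15 and 2.00 TPM there, and among the other 7 tumors only Hoxc6 reached 1 TPM, in wild-type tumors 1 and 2, besides Hoxc4 at 1.01 TPM in wild-type tumor 4. At the 5′ end Hoxc11 had 12 counts over all tumors, Hoxc13 had 16 and Hoxc12 none.

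**Figure D2:**
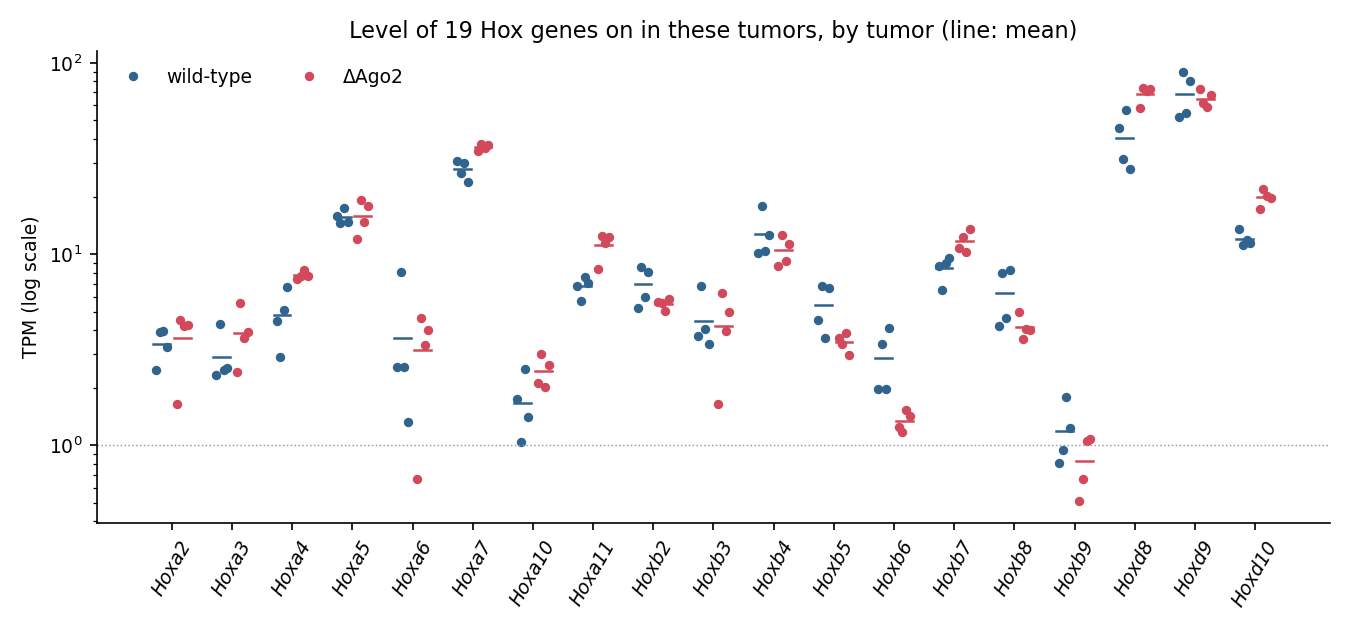
Level in TPM (log scale) of 19 of the 20 Hox genes that were on, 1 point per tumor (n = 4 wild-type, n = 4 ΔAgo2) with a line at each mean and a dotted line at 1 TPM. Hoxd8, Hoxd9 and Hoxa7 stand above the rest, and Hoxb9 straddles 1 TPM.

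The genes next to the clusters stood at different levels. Evx1, a homeobox gene 52618 bases beyond Hoxa13, had no counts and Evx2, 8753 bases beyond Hoxd13, had 4 in all. On the HoxD side away from Evx2, Mtx2, which encodes a mitochondrial import protein, was on at a mean of 37.1 TPM, and beyond Evx2 Lnpk was on at 4.08 TPM. Skap2, at the 3′ side of HoxA, averaged 17.8 TPM, and Cbx5, which encodes heterochromatin protein 1 alpha and lies past Hoxc4, 62.7 TPM. None of the neighbours that were tested passed the threshold; the nearest to it was Cbx5 (log2 fold change 1.24, edgeR quasi-likelihood adjusted p = 0.0526).

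No Hox gene passed the threshold between genotypes. The counts were compared by edgeR's quasi-likelihood test over the 16061 genes with enough counts, with Benjamini-Hochberg adjustment over all of them and a threshold of 0.05, and 560 genes passed (3.49%), 219 higher and 341 lower in ΔAgo2. Of the 39 Hox genes 29 were deep enough to be tested and 0 passed, the lowest adjusted p being 0.0701 (Hoxa9). At an unadjusted p under 0.05 there were 8 of 29, near the 26.7% of all genes tested. The log2 fold change of ΔAgo2 over wild-type was above 0 for 12 and below 0 for 17 of them, with a median of -0.29, against a median of 0.04 over all genes tested. The Hox median depended on single libraries: it was -0.16 without wild-type tumor 2, -0.063 without wild-type tumor 3 and -0.11 without wild-type tumor 4, and with each library's trend on GC content removed it was -0.14.

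By cluster the median fold changes differed in sign, with no passing gene in any. The median was 0.18 over 10 genes of HoxA, -0.66 over 8 of HoxB, -0.93 over 6 of HoxC and 0.50 over 5 of HoxD. In HoxC all 6 were below 0, and in HoxB 7 of 8, with Hoxb7 the exception at 0.25. Wild-type tumors 2 and 4 are the libraries with a positive GC correlation. Without them the log2 fold change of Hoxb4 went from -0.52 to -0.046, that of Hoxb2 from -0.55 to -0.057 and that of Hoxb8 from -0.78 to -0.088. The ΔAgo2 tumors with a negative GC correlation stayed in that fit. The 95% intervals reached from -2.89 (Hoxc10) to 2.74 (Hoxa9) at their widest, so changes of several fold in the weak genes are within the error, while for Hoxa7 the interval was -0.24 to 0.65. DESeq2's Wald test on the same counts passed 4 of the Hox genes (Hoxa9, Hoxb6, Hoxc6 and Hoxc10), beside 14.9% of all genes, counts thinned to the shallowest tumor passed 1 (Hoxb6), beside 4.23%, and limma voom with quality weights 7 of 29 (those 4 with Hoxa11, Hoxb5 and Hoxd8), beside 27.9%.

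**Figure D3:**
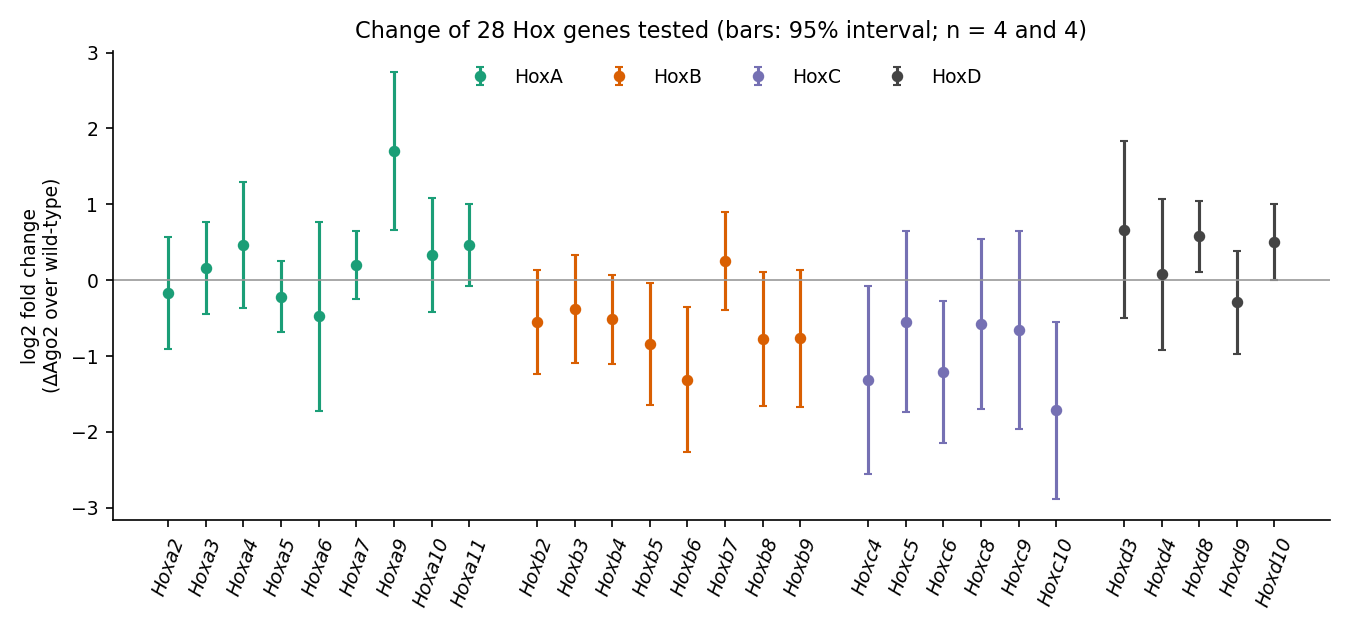
Log2 fold change of ΔAgo2 over wild-type tumors for 28 of the 29 Hox genes tested, in cluster order, with 95% intervals from edgeR's quasi-likelihood fit (n = 4 and 4). Every HoxC point lies below 0 and Hoxa9 has the highest value, 1.70; no gene passed the adjusted threshold.

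Hoxa9 had the highest fold change from a low level. Its CPM were 0.09, 0.14, 0.23 and 0.14 in wild-type tumors and 0.45, 0.68, 0.57 and 0.35 in ΔAgo2 tumors, on 239 counts in all. The groups do not overlap, and the log2 fold change was 1.70 ± 0.47 (SE; edgeR quasi-likelihood adjusted p = 0.0701). Groups that do not overlap in CPM with ΔAgo2 higher were seen for 8.05% of all genes tested and for 3 of the 29 Hox genes: Hoxa9, Hoxd8 and Hoxd10.

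Hoxd8 and Hoxd10 had higher values in ΔAgo2 at high levels, without passing the threshold. Hoxd8 stood at 44.0, 30.4, 53.8 and 37.8 CPM in wild-type and 72.6, 55.4, 61.6 and 58.7 CPM in ΔAgo2, a log2 fold change of 0.58 ± 0.21 (SE; edgeR quasi-likelihood adjusted p = 0.126). The lowest ΔAgo2 tumor was just above the highest wild-type tumor. Hoxd10 stood at 8.62, 7.10, 7.46 and 10.3 CPM in wild-type and 14.3, 10.9, 11.6 and 10.5 CPM in ΔAgo2 (log2 fold change 0.50 ± 0.23 SE, edgeR quasi-likelihood adjusted p = 0.183). Hoxa11 (0.47 ± 0.25 SE, edgeR quasi-likelihood adjusted p = 0.241) and Hoxd3 (0.67 ± 0.53 SE, edgeR quasi-likelihood adjusted p = 0.427) complete the 5 with the highest fold changes, and their groups overlap.

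On the deposited TPM scale more of the Hox genes separated by group. There Hoxa4, Hoxa7, Hoxa9, Hoxa11, Hoxb7, Hoxd8 and Hoxd10, 7 of the 29, had every ΔAgo2 tumor above every wild-type tumor, beside 6.36% of all genes tested, and Hoxb6 had every ΔAgo2 tumor below, beside 5.34%. For a single gene the scales differ between tumors by a factor of each library. TPM are divided by the library's length-scaled total and these CPM by its TMM-adjusted total, while the gene's own length is the same in every tumor. In wild-type libraries 1 CPM of Hoxd8 was worth 0.734 to 1.05 TPM, and in ΔAgo2 libraries 0.799 to 1.33 TPM. With limma on log2(TPM + 1) 0 of 29 Hox genes passed, beside 0.816% of all genes.

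Hoxb6 was the lowest HoxB gene by fold change. It stood at 1.35, 2.34, 1.35 and 4.01 CPM in wild-type and 1.11, 0.63, 0.96 and 0.82 CPM in ΔAgo2, with no overlap (log2 fold change -1.31 ± 0.43 SE, edgeR quasi-likelihood adjusted p = 0.102). No overlap with ΔAgo2 lower was seen for 8.36% of all genes tested and for 1 of the 29 Hox genes. Hoxb5 was at 4.42, 6.63, 3.53 and 9.17 CPM in wild-type and 4.62, 2.58, 3.43 and 2.43 CPM in ΔAgo2 (-0.84 ± 0.37 SE, edgeR quasi-likelihood adjusted p = 0.173). In both genes wild-type tumors 2 and 4, the libraries with a positive GC correlation, were the highest 2. Without both of these tumors the log2 fold change was -0.61 for Hoxb6 and -0.27 for Hoxb5.

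The lowest fold changes were in HoxC, at low counts, and none passed the threshold. Hoxc10 stood at 0.64, 0.62, 1.32 and 0.14 CPM in wild-type and 0.33, 0.15, 0.21 and 0.22 CPM in ΔAgo2 (log2 fold change -1.72 ± 0.53 SE, edgeR quasi-likelihood adjusted p = 0.0904). Hoxc6 was at 1.11, 0.86, 1.79 and 0.43 CPM against 0.51, 0.52, 0.39 and 0.47 CPM (-1.21 ± 0.43 SE, edgeR quasi-likelihood adjusted p = 0.114). Hoxc4 was at 0.21, 0.38, 0.80 and 1.29 CPM against 0.31, 0.22, 0.27 and 0.19 CPM (-1.32 ± 0.56 SE, edgeR quasi-likelihood adjusted p = 0.166). In each of these the groups overlap, with wild-type tumor 3 or 4 highest.

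Wild-type tumor 3, where HoxC was highest, also had the most skeletal muscle RNA. The summed level of 12 muscle markers was 284, 365, 3827 and 507 CPM in wild-type and 215, 57.4, 233 and 183 CPM in ΔAgo2 tumors, so all 12 were detected and every wild-type sum was above every ΔAgo2 sum; 1 of the 12 passed, lower in ΔAgo2 (Myh2, a fast myosin, log2 fold change -2.84, edgeR quasi-likelihood adjusted p = 0.0305). The summed HoxC level was 3.24, 2.96, 7.38 and 2.87 CPM in wild-type and 3.02, 1.67, 2.18 and 1.77 CPM in ΔAgo2. Without wild-type tumor 3, Hoxc8 went from -0.58 to 0.08, Hoxc9 from -0.65 to 0.04 and Hoxc5 from -0.54 to -0.06 on the log2 scale. The part of muscle in the HoxC values was not tested.

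**Figure D4:**
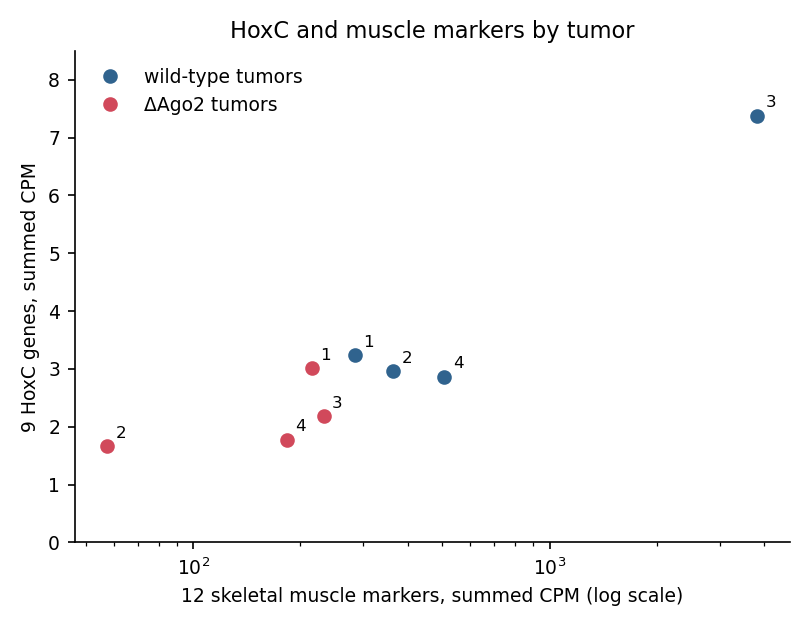
Summed CPM of the 9 HoxC genes against summed CPM of 12 skeletal muscle markers (log scale), 1 point per tumor, numbered by replicate. Wild-type tumor 3 stands apart on both axes, at 7.38 CPM of HoxC and 3827 CPM of muscle markers.

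Markers of other cell types were summed in the same way. Whether their RNA came from host or cancer cells was not tested. The 12 fibroblast markers summed to 5037 to 7422 CPM in wild-type and 2461 to 4836 CPM in ΔAgo2, ranges that do not overlap, with 1 of 12 passing (Fap, lower). Most of that sum was Col3a1, a fibrillar collagen, at means of 4759 and 2931 CPM. Of the 12 single genes 8 had a log2 fold change below 0 and 4 above, from 0.16 (Dcn) to 0.70 (Postn), and the groups of Dpt, 1 of those 4, do not overlap. The 12 skin keratinocyte markers summed to 17.6 to 716 CPM in wild-type, lowest in tumor 3, and 542 to 1065 CPM in ΔAgo2, with 1 of 12 passing (Krt10, higher). Of the 12 endothelial, 10 pan-leukocyte and 9 adipocyte markers 0 passed, and their summed ranges overlap at 388 to 592 against 348 to 426 CPM, 787 to 1321 against 767 to 1349 CPM, and 22.8 to 227 against 19.6 to 395 CPM. Fibroblasts are known to carry Hox expression of their site of origin, and the part of these cells in the Hox values was not tested.

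The level of Hoxd9 relative to Hoxd8 varied with the GC trend of the libraries. On the log2 scale the ratio of their CPM was -0.18, 1.14, -0.41 and 1.17 in wild-type tumors and -0.04, -0.63, -0.64 and -0.47 in ΔAgo2 tumors. The exons of Hoxd9 are 61.0% G and C and those of Hoxd8 55.8%. For Hoxd9 itself the CPM were 38.9, 67.0, 40.4 and 85.0 in wild-type and 70.7, 35.9, 39.6 and 42.5 in ΔAgo2 (log2 fold change -0.29 ± 0.31 SE, edgeR quasi-likelihood adjusted p = 0.560). With each library's trend on GC content removed the value turned to 0.37, so the direction of Hoxd9 between genotypes was not settled.

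**Figure D5:**
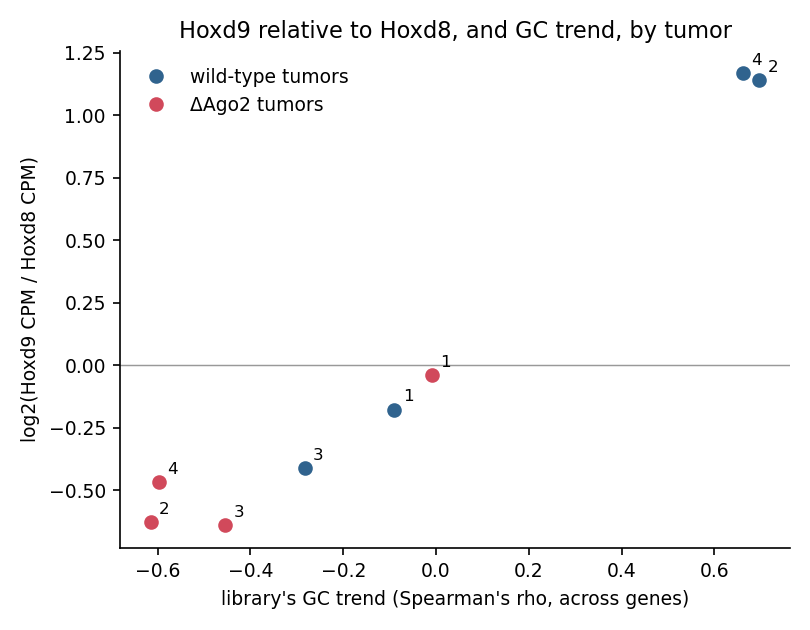
Log2 ratio of Hoxd9 to Hoxd8 CPM against each library's GC trend (Spearman's rho between gene GC content and the library's deviation, across genes), 1 point per tumor, numbered by replicate. Wild-type tumors 2 and 4 lie at the top right, at 1.14 and 1.17, and the other 6 tumors are below 0.

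Hoxa7 and Hoxa5, the remaining 2 of the 5 most abundant, had intervals that include 0. Hoxa7 was at 31.1, 26.8, 29.8 and 33.8 CPM in wild-type and 45.5, 29.7, 32.8 and 31.6 CPM in ΔAgo2 (log2 fold change 0.20 ± 0.20 SE, edgeR quasi-likelihood adjusted p = 0.533). Hoxa5 was at 10.4, 9.58, 11.4 and 13.8 CPM against 10.2, 9.83, 8.72 and 9.86 CPM (-0.22 ± 0.21 SE, edgeR quasi-likelihood adjusted p = 0.519). The remaining tested genes had fold changes between -0.78 (Hoxb8) and 0.46 (Hoxa4).

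Because Argonaute proteins act on transcripts through microRNAs, the 3′UTRs of the Hox genes were searched for matches to the microRNAs encoded inside the clusters. These are shown, from RefSeq (GRCm38.p6), with the seed (bases 2 to 8) in capitals.
miR-196a-5p: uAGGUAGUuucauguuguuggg
miR-196b-5p: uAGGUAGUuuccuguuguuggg
miR-10a-5p: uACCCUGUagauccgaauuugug
miR-10b-5p: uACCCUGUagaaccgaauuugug
The first 2 share a seed and so do the last 2. The miR-196a mature sequence lies in HoxB (chr11:96265187-96265208, plus strand) and again in HoxC (chr15:102973365-102973386, plus strand), miR-196b in HoxA (chr6:52230129-52230150, minus strand), miR-10a in HoxB (chr11:96317186-96317208, plus strand) and miR-10b in HoxD (chr2:74726074-74726096, plus strand). Mature microRNAs are too short for this mRNA library, so their levels were not measured.

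A seed match to miR-196 (ACTACCT on the transcript strand) was found in the 3′UTR of 9 of the 39 Hox genes, 8 of them tested, while 6.67% of the 13657 tested genes with an annotated 3′UTR hold one. Hoxa4, Hoxa5, Hoxa7, Hoxa9, Hoxb1, Hoxb6, Hoxb7 and Hoxc8 are among them, of which Hoxa7 has 4 matches and Hoxc8 has 2. The site nearest to full complement was in Hoxb8, a reported miR-196 target whose site the seed search misses because of a G:U pair. Hoxb8 pairs with miR-196a over 22 of 22 bases, 21 of them Watson-Crick and 1 G:U, and 2 of 13630 tested 3′UTRs of sufficient length reach 22 pairs. It is shown with the Watson-Crick paired bases in capitals (chr11:96284888-96284909, plus strand), and one of the Hoxa7 sites and the Hoxa9 site with the seed match in capitals (chr6:52215210-52215231 and chr6:52223900-52223921, both minus strand).
Hoxb8: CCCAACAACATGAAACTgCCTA
Hoxa7: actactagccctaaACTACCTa
Hoxa9: caaaaggaaagaaaACTACCTt
A match is a description of the sequence, not of use in these tumors.

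Hox genes with a miR-196 match did not share a direction. Of the 8 tested, 5 had a log2 fold change above 0 and 3 below, with a median of 0.11 and a range from -1.31 (Hoxb6) to 1.70 (Hoxa9). Over all 911 tested genes with the match the median was 0.22, and over the 12746 without it 0.04. For a miR-10 seed match the medians were 0.15 over 1992 genes with it and 0.03 over 11665 without. The libraries' deviations had Spearman correlations with gene length of -0.28 to 0.02 in wild-type and -0.49 to 0.44 in ΔAgo2. Genes with and without a match were not matched for length or GC content, and a part of the microRNAs was not tested. Hoxb8 itself was at 3.88, 7.39, 4.25 and 10.8 CPM in wild-type and 5.97, 2.60, 3.40 and 3.09 CPM in ΔAgo2 (log2 fold change -0.78 ± 0.40 SE, edgeR quasi-likelihood adjusted p = 0.234). For miR-10 (ACAGGGT) a match was found in 4 Hox genes, 3 of them tested, beside 14.6% of tested genes, and among these Hoxa3 and Hoxb3 had log2 fold changes of 0.16 and -0.38. Of the 10 Hox genes listed as reported targets of either microRNA family 0 passed, with a median log2 fold change of 0.12.

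Hox proteins bind DNA with TALE cofactors, and their clusters are kept silent by Polycomb and active by Trithorax complexes. All 9 TALE genes were tested and 0 passed. Meis2, Meis3 and Pbx4 came closest, each lower in ΔAgo2 with an edgeR quasi-likelihood adjusted p of 0.112. Their log2 fold changes were -0.80 ± 0.28, -0.99 ± 0.34 and -1.02 ± 0.36 (SE), while 4 of the 9 TALE genes had one above 0. Meis2 stood at 16.5, 18.7, 19.6 and 17.5 CPM in wild-type and 5.31, 12.2, 12.0 and 12.0 CPM in ΔAgo2. Of 11 genes of Polycomb complex PRC2 10 had a fold change above 0 and of 12 of PRC1 3 had, with 0 passing in either list. Over all genes tested 52.5% were above 0. These directions followed GC content: in PRC1 the genes above 0 had 39.5% to 43.8% GC and the others 53.1% to 60.4%. In PRC2 the gene below 0 had 58.6% and the others 38.2% to 53.9%. The part of the libraries' GC trend in these directions was not tested. Of 12 Trithorax and MLL genes 0 passed, Men1, which encodes menin, being nearest at -0.75 ± 0.23 SE (edgeR quasi-likelihood adjusted p = 0.0845).

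Retinoic acid and Cdx factors are known inputs to the clusters, and here 1 of the 13 tested genes of that list passed. Crabp1, which encodes a cytosolic retinoic acid binding protein, stood at 69.4, 72.1, 48.0 and 82.7 CPM in wild-type and fell to 16.8, 2.09, 9.28 and 4.44 CPM in ΔAgo2 (log2 fold change -3.07 ± 0.54 SE, edgeR quasi-likelihood adjusted p = 0.0160). Every ΔAgo2 tumor was below every wild-type tumor. Without wild-type tumor 2, ΔAgo2 tumor 3 or ΔAgo2 tumor 4 the adjusted p of Crabp1 was 0.0554, 0.0515 and 0.0655. Cyp26a1, the enzyme that clears retinoic acid and a known retinoic acid target, was at 0.22, 0.62, 0.08 and 0.72 CPM in wild-type and 1.48, 1.97, 1.70 and 1.96 CPM in ΔAgo2, groups that do not overlap (log2 fold change 2.36 ± 0.58 SE, edgeR quasi-likelihood adjusted p = 0.0521). The receptor Rarg was at 241 ± 65.8 CPM against 140 ± 22.7 CPM (SD, n = 4 each, edgeR quasi-likelihood adjusted p = 0.0835). Its values were 195, 293, 174.6 and 302 CPM in wild-type, highest in tumors 2 and 4, the libraries with a positive GC correlation. In ΔAgo2 they were 173.7, 125, 131 and 129 CPM. Cdx2 was at 4.88 ± 2.01 CPM against 3.12 ± 0.810 CPM (SD, n = 4 each, edgeR quasi-likelihood adjusted p = 0.259), while Cdx1 and Cdx4 were near 0.

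The noncoding transcripts of the clusters were low. Of the 17 found 7 were tested and 0 passed, and 4 had no counts, Hotair of HoxC and Hottip of HoxA among them. By mean TPM Hoxd3os1 was highest, at 4.86 ± 0.51 TPM in wild-type and 6.41 ± 0.64 TPM in ΔAgo2 (SD, n = 4 each). Hotairm1, Halr1 and Hoxb3os followed at means of 2.06, 2.00 and 1.87 TPM over the 8 tumors, differences smaller than the spread between tumors.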

How the data were processed

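The deposited tables hold raw read counts per gene and TPM values for the 8 tumors. The authors made the counts from stranded mRNA libraries sequenced as paired 100-base reads; their methods, written for cultured cells, name alignment to ribosomal RNA, then to mm10, and featureCounts, and the submitters' processing notes name STAR and mm10. Strand and multi-mapping settings are not given in the sources used here. The TPM are the authors' deposited values. Of 55487 gene IDs 99.29% matched GENCODE M21. Counts were tested with edgeR 4.0.16 (quasi-likelihood, TMM scaling, filterByExpr, Benjamini-Hochberg at 0.05), checked on simulated counts; CPM use TMM-scaled totals. DESeq2 1.42.0 and limma 3.58.1 were alternatives. Same-numbered tumors did not deviate together (correlations -0.29 to 0.10), so no block was used. Counting limits cover counting error only. Members and lists were chosen with earlier results of these data known. Named with statistics were the 5 highest and 5 lowest fold changes, the 5 most abundant members, Ago2, listed genes that passed or led their list or lay nearest the threshold, reported microRNA targets and cluster neighbours; single values of some genes counted here are not reported; list genes that missed the threshold, lung genes and Hoxb8's site were added after values were seen.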

Additional observations from a re-analysis of the deposited data

Results flagged for a closer look

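A gap test (Dixon, 95% level for 4 tumors) was applied to 84 groups of 4 CPM values, and 12 had a tumor far from the other 3. Chance flags about 1 in 20 groups where the groups are independent and their values normally distributed. These groups are not independent, because the sums contain genes also examined singly, so the 12 do not measure an excess. Of the 56 groups of single Hox genes 5 stood out. Wild-type tumor 3 had 1.85 CPM of Hoxc8 against 0.52 to 0.67 in the others, 7.38 CPM of summed HoxC against 2.87 to 3.24, 3827 CPM of muscle markers against 284 to 507 and 227 CPM of adipocyte markers against 22.8 to 45.9. Wild-type tumor 2 had 2.48 CPM of Hoxa6 against 0.57 to 0.79 and 0.91 CPM of Hoxd3 against 0.29 to 0.38. ΔAgo2 tumor 1 had 287 CPM of all Hox genes against 208 to 217, 83.4 CPM of HoxA against 68.3 to 68.9, 158.6 CPM of HoxD against 105 to 114 and 395 CPM of adipocyte markers against 19.6 to 47.0, while its Hoxa2 was lowest at 1.33 CPM against 2.19 to 2.36. On the TPM scale ΔAgo2 tumor 1 instead had the lowest of these Hox sums among the ΔAgo2 tumors. All Hox genes summed to 259 TPM there against 279 to 307, and HoxA to 71.2 against 86.6 to 98.5. HoxD summed to 148.55 TPM against 150.53 to 161.68, so its high Hox level depends on the scale. ΔAgo2 tumor 2 had 9.14 CPM of Hoxa3 against 6.65 to 6.96.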

How the results depend on the processing

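There were 22 alternative fits, and each of 28 tested Hox genes had a value in 20 to 22 of them. In those 19 had the same direction throughout and 9 turned in at least 1. The count of passing Hox genes stayed at 0 except for 4 with DESeq2's Wald test, 7 with limma voom with quality weights and 1 (Hoxb6) with counts thinned to the shallowest tumor, where 4.23% of all genes passed; leaving out any 1 tumor gave 0 to 0. Over all genes the share that passed, 3.49% (560 genes), became 14.9% with DESeq2, 27.9% with voom (4476 genes), 7.73% with the length correction, 0.816% and 0.946% with limma on log2(TPM + 1) and log2(TPM + 0.1), and 0.541% to 11% without 1 tumor (88 genes leaving out the fourth ΔAgo2 tumor and 1793 leaving out the first). The 1 partner or regulator gene became 14 with DESeq2, 20 with voom, 3 without a count filter (where 983 genes passed in all), 2 at 10 counts in every tumor, 3 when GC content was corrected for, 4 when length was, 2 with thinning and 0 to 7 without 1 tumor. The replicate block, whose numbers did not pair the tumors, gave 0.436% of genes (70) and 0 partner or regulator genes, where Crabp1 had an adjusted p of 0.0507 in edgeR, and the replicate block with GC correction gave 1.92% (309) and 2; it changed no Hox call. Leaving out wild-type tumors 2 and 4 together, chosen after seeing the data, gave 0.589% of genes (100) and 1 partner or regulator gene, Cyp26a1 in place of Crabp1 (adjusted p = 0.163, edgeR). The median Hox log2 fold change of -0.29 became -0.065 with voom, -0.039 with thinning, -0.038 with log2(TPM + 1), -0.050 with log2(TPM + 0.1), -0.046 without wild-type tumors 2 and 4, and -0.43 to -0.063 without 1 tumor. Hox genes on were 23 at 0.5 TPM, 10 at 5 TPM and 19 to 20 without 1 tumor, the difference being Hoxb9.

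Among single genes, Hoxa2 turned to 0.25 with voom, 0.046 without wild-type tumors 2 and 4, and 0.040 and 0.029 with log2(TPM + 1) and log2(TPM + 0.1). Hoxa3 turned to -0.0022 with the length correction and Hoxa5 to 0.0056 and 0.0048 with log2(TPM + 1) and log2(TPM + 0.1). Hoxa6 turned to 0.22 with voom, 0.011 with the GC correction, 0.11 without wild-type tumors 2 and 4, and ran from -0.66 to 0.20 without 1 tumor. Hoxb3 turned to 0.031 with voom. Hoxd9 turned to 0.37 with the GC correction, 0.35 with the block and GC correction and 0.27 without wild-type tumors 2 and 4. Without 1 tumor Hoxc8 ran from -0.83 to 0.079, Hoxc9 from -1.19 to 0.041 and Hoxd4 from -0.23 to 0.34. The cause of these shifts was not tested. Depth limits the weak genes most: the 6 tested HoxC genes rest on 122 to 396 counts each over all tumors.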
